A study of Mus musculus with 157 samples.

Results

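The GARP and EARP complexes are described here by their 5 subunit genes, Vps50, Vps51, Vps52, Vps53 and Vps54, found by symbol in every deposited table. All 5 have an entry in the atlas, Mettl3 and Igf2bp2 tables of 36102 genes each, and 4, all but Vps51, in the SLAM-seq tables, out of 36259 gene symbols in the series. The genes were chosen by the measured signal of Vps51 after precipitation with an antibody against N6-methyladenosine (m6A), which was low in long-term haematopoietic stem cells (LT.HSC), so that contrast is given as a description and was not tested.

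The series holds 157 samples of mouse haematopoietic cells. In the untreated wild-type atlas, 16 cell types have 2 libraries each of total RNA (input) and of m6A-precipitated RNA (IP). In the Mettl3 set, 7 cell types labelled Mettl3 -/- and the same 7 labelled wild type have 2 input and 2 IP libraries each. The Igf2bp2 set compares 2 Igf2bp2 -/- with 2 wild-type libraries of LT.HSC, and SLAM-seq, which marks new RNA by T-to-C changes after 4-thiouridine labelling, covers 12 wild-type libraries of 6 types after 3 h and chases of LT.HSC and of MkP, the megakaryocyte progenitor. The labels state neither how the alleles were deleted nor how old the animals were. They also leave unsaid whether replicates are separate animals, so every p-value rests on a spread between libraries that may be technical.

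GARP is a tethering complex of Vps51, Vps52, Vps53 and Vps54 that catches vesicles coming from endosomes at the trans-Golgi network, where it also helps SNARE proteins pair. EARP shares Vps51, Vps52 and Vps53 but carries Vps50 in place of Vps54, and works at recycling endosomes. Mettl3 catalyses m6A methylation of RNA, and Igf2bp2 is an RNA-binding protein that recognises m6A-marked transcripts.

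Library depth ran from 8.23 to 21.5 M reads in atlas inputs and from 10.8 to 24.6 M in atlas IPs. In the Mettl3 set it ran from 3.42 to 20.2 M in inputs and from 0.819 to 22.9 M in IPs, and in the Igf2bp2 set from 4.68 to 20 M. LT.HSC markers were highest in LT.HSC inputs, with a summed normalised read count of 3787 to 4058 against at most 3658 elsewhere. Marker genes went against some labels. Inputs labelled CD4 had Cd8a at 12002 and 11930 and Cd4 at 7.77 and 13.7, while inputs labelled CD8 had Cd8a at 80.3 and 30.9 and Cd4 at 1509.6 and 1482, so these are called CD4-labelled and CD8-labelled. In CD4-labelled IPs, Cd8a had 11016 and 11769 counts and Cd4 had 0 and 2832, so the second library held both markers. In CD8-labelled IPs, Cd8a had 15 and 320 counts and Cd4 had 3224 and 5953. Neutrophil markers were higher in inputs labelled Monocyte than in those labelled Neutrophil. The monocyte list was also highest in inputs labelled Monocyte, at 214458 to 257032 against at most 71764 elsewhere. The lists for CLP, DC and MEP were not highest in their own type. The top 10 genes took 81.2% and 82.3% of the counts in the Erythroid IPs.

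On the mouse assembly GRCm38.p6, Vps50 lies at chr6:3498393-3603531, Vps51 at chr19:6067842-6077187, Vps52 at chr17:33955779-33967038, Vps53 at chr11:76046226-76179638 and Vps54 at chr11:21239032-21321133. All 5 are protein-coding genes. The span of Vps51 overlaps that of its neighbour Tm7sf2 by 9 bases, and reads within that stretch cannot be assigned to either gene by position. RefSeq promoters of this assembly, 250 bases before to 50 after a start, matched 4 members in 6 entries, and Vps51 is named only. The promoters of Vps50, Vps52 and Vps54, shown because input levels of Vps52 ran opposite to those of the other pair across types, are printed for the plus strand at chr6:3498143-3498442, chr17:33955550-33955849 and chr11:21238782-21239081. Capitals mark 3 motifs sought on both strands and chosen after the sequences were seen, the ETS core CCGGAA, the GC box GGGCGG and the E-box CACGTG.
Vps50: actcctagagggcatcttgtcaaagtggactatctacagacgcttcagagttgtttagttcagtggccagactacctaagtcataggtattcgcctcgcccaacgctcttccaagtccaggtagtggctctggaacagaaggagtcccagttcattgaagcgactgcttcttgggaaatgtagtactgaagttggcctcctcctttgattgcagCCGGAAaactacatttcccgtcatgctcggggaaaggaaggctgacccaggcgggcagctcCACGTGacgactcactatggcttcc
Vps52: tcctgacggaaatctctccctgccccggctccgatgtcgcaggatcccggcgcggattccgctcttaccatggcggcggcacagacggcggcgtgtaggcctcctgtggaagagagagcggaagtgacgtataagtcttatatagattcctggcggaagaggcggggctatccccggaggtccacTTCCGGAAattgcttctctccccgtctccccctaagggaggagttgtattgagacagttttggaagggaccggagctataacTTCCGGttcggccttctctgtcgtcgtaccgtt
Vps54: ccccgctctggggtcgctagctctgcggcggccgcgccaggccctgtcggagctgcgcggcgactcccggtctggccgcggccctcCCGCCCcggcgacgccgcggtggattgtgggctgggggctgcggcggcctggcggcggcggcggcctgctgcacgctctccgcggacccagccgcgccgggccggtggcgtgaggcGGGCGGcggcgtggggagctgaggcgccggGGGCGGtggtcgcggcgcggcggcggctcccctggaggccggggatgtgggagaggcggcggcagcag
The ETS core occurred once in the Vps50 window, 3 times in the Vps52 window, where 2 of the matches overlap on opposite strands, and 0 times in the Vps54 window. The GC box occurred 3 times in the Vps54 window and 0 times in the other 2, and the E-box once, in the Vps50 window. Of the windows not printed, those of Vps52 starting at 33955632 and 33955840 held the ETS core 5 and 3 times. The Vps53 window held it 2 times, and none of these held the GC box or the E-box. Among all 32851 mouse promoters of this length, 14.9% hold the ETS core, 35.7% the GC box and 7.15% the E-box.

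Input RNA of all 5 subunit genes differed among cell types, each with its own order of types. Values are normalised read counts of the 2 libraries of a type, and the order of levels is by the mean of the 2. In bulk samples, fewer cells of a type and less RNA per cell cannot be told apart. Vps51, the subunit held by both complexes, had 1843 and 1549.6 in the libraries labelled Neutrophil, its highest type, against 496.5 and 431 in B_cell, its lowest. It was also high in DC with 1111 and 1073 and in MkP with 930.4 and 1076, and LT.HSC with 941 and 913 ranked 5 of 16. Its Neutrophil libraries lay above all others, the highest of which was 1520.2 in the second ST.HSC library.

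Vps52 and Vps53, the other shared subunits, were both highest in MkP, at 1187 and 1025 for Vps52 and at 638 and 547 for Vps53. For Vps52 the next type was MEP with 508 and 863, and it was lowest in B_cell at 219 and 117. The MkP libraries did not overlap those of any other type for Vps52. Vps53 was lowest in Erythroid at 151 and 132, below LT.HSC at 258 and 256, which was the next lowest. These 2 types stood apart from each other and from the 14 above them. B_cell was split for Vps53, with 355 in 1 library and 682 in the other, the highest single value of that gene.

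Vps54, the GARP subunit, had the widest range of the 5, from 267 and 279.8 in Neutrophil down to 12.9 and 12.4 in MkP, a 21.7-fold difference of means. CD8-labelled libraries had 258 and 264, LT.HSC 185 and 242, and GMP, the second lowest, 31.7 and 93.1. All 30 other libraries were above both MkP libraries, whose values stood for 25 and 17 reads of Vps54. Vps50, which takes the place of Vps54 in EARP, had 281 and 328 in LMPP, 207 and 398 in B_cell and 296 and 224 in LT.HSC. It was lowest in MkP with 93.7 and 45.1 and in Monocyte with 63.7 and 80.9, where the Monocyte values stood for 8 and 7 reads. The 7 highest types for Vps50, LMPP, B_cell, CD4-labelled, DC, LT.HSC, CD8-labelled and CLP, lay above the remaining 9, with no neighbouring pair among them apart.

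**Figure D1:**
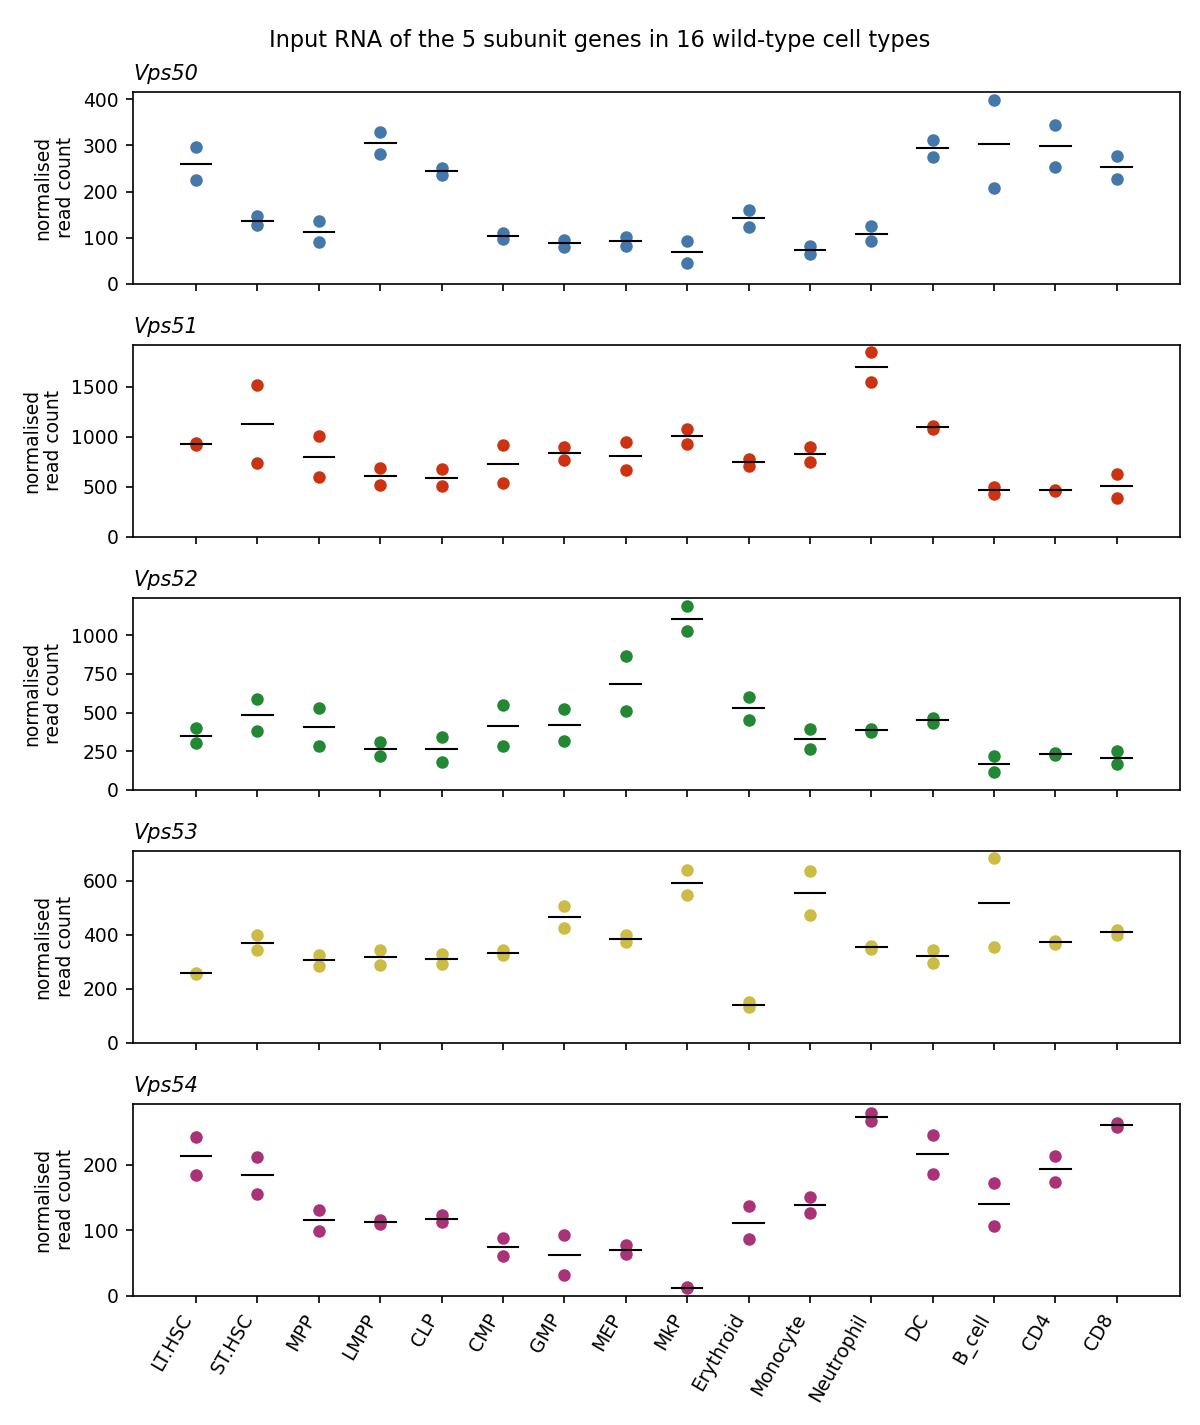
Input RNA of Vps50, Vps51, Vps52, Vps53 and Vps54 (y axis, normalised read count per library, each gene on its own scale) in 16 wild-type cell types (x axis), with a point per library and a bar at the mean of 2. Vps52 and Vps53 are highest in MkP, where Vps54, at 12.9 and 12.4, is lowest.

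A limma F test over the 15 types other than LT.HSC, adjusted by Benjamini-Hochberg over 16881 genes, called all 5 members, and it called 92.5% of all genes. Adjusted p was 3.08e-06 for Vps50, 9.01e-04 for Vps51, 2.26e-04 for Vps52, 5.15e-05 for Vps53 and 1.79e-07 for Vps54. The highest type exceeded the lowest 4.39-fold for Vps50, 3.66-fold for Vps51, 6.59-fold for Vps52 and 4.20-fold for Vps53. Of 15 neighbouring pairs of types in each order, libraries did not overlap in 1 for Vps50, 2 for Vps51, 1 for Vps52, 5 for Vps53 and 4 for Vps54, so most neighbours did not differ beyond their spread.

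Subunits of 1 complex did not follow a shared order of types. Over the 16 type means of log2 input, which share libraries and size factors, Pearson r was 0.640 between Vps51 and Vps52 and 0.596 between Vps50 and Vps54, the subunits that replace each other. It was -0.691 between Vps50 and Vps52 and -0.647 between Vps52 and Vps54, and the second became -0.330 over the 15 types without MkP. Vps53 had r of -0.013 with Vps52 and -0.027 with Vps51, which became -0.370 and -0.121 without MkP. Without MkP, r was 0.670 between Vps51 and Vps52, 0.485 between Vps50 and Vps54 and -0.611 between Vps50 and Vps52. Among 10365 genes compared over the same 16 means, those most like each member were Trmt13 for Vps50 (r = 0.959), Zfyve27 for Vps51 (r = 0.918), Rbck1 for Vps52 (r = 0.945), Psmb10 for Vps53 (r = 0.814) and Mroh1 for Vps54 (r = 0.915). The next were Scai and Zfp329 for Vps50, Slc6a6 and Gpr108 for Vps51, Sf3a2 and Arfgap1 for Vps52, Faim and Tbcb for Vps53, and Baz2a and Crebrf for Vps54.

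The m6A-precipitated RNA of Vps51 was nearly missing from LT.HSC, although its input RNA was not. The LT.HSC IPs held 1 and 5 counts of Vps51, with 95% Poisson intervals of 0.0253 to 5.57 and 1.62 to 11.7, which cover counting error only. These are 0.0714 and 0.308 CPM (counts scaled to a common library total). The 30 IPs of other types held 25 to 1026 counts, with a median of 569, or 1.52 to 51.9 CPM with a median of 33.3. Both LT.HSC libraries lay below all 30, of which the lowest were Erythroid with 28 and 35 counts and the second LMPP library with 25 counts against 515 in the first.

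The other 4 subunits did not share this low signal. LT.HSC IPs held 319 and 379 counts of Vps50, 705 and 1349 of Vps52, 459 and 618 of Vps53 and 517 and 711 of Vps54. For Vps52, the mean of 66.7 CPM in LT.HSC was the highest of the 16 types. Its libraries, at 50.3 and 83.1 CPM, overlapped those of B_cell, the next type, at 35.3 and 50.9 CPM. The neighbour of Vps51, Tm7sf2, a sterol reductase gene, had 228 and 574 IP counts in LT.HSC against 7 to 187 elsewhere. Znhit2, which lies beyond Tm7sf2 and is not next to Vps51, had 76 and 192 counts, within the 11 to 884 of the other types.

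Enrichment is log2 IP minus log2 input after scaling each table by TMM, with a pseudocount of 1. For Vps51 it was -8.45 in LT.HSC, rank 2 from the lowest of 17165 genes, while in the other 15 types it lay between -2.60 in LMPP and 0.48 in CD4-labelled cells. The second CD4-labelled IP held both Cd4 and Cd8a, unlike the inputs of that label. Against the mean of those 15 types LT.HSC differed by -7.62 log2 units, with -8.12 to -7.05 when any 1 LT.HSC library was left out and -5.50 with a pseudocount of 10. The median gene stood at -0.21 in the same contrast. The same difference was -1.30 for Vps50, 0.84 for Vps52, 0.21 for Vps53 and -1.05 for Vps54. These values come from the contrast that chose the complex.

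**Figure D2:**
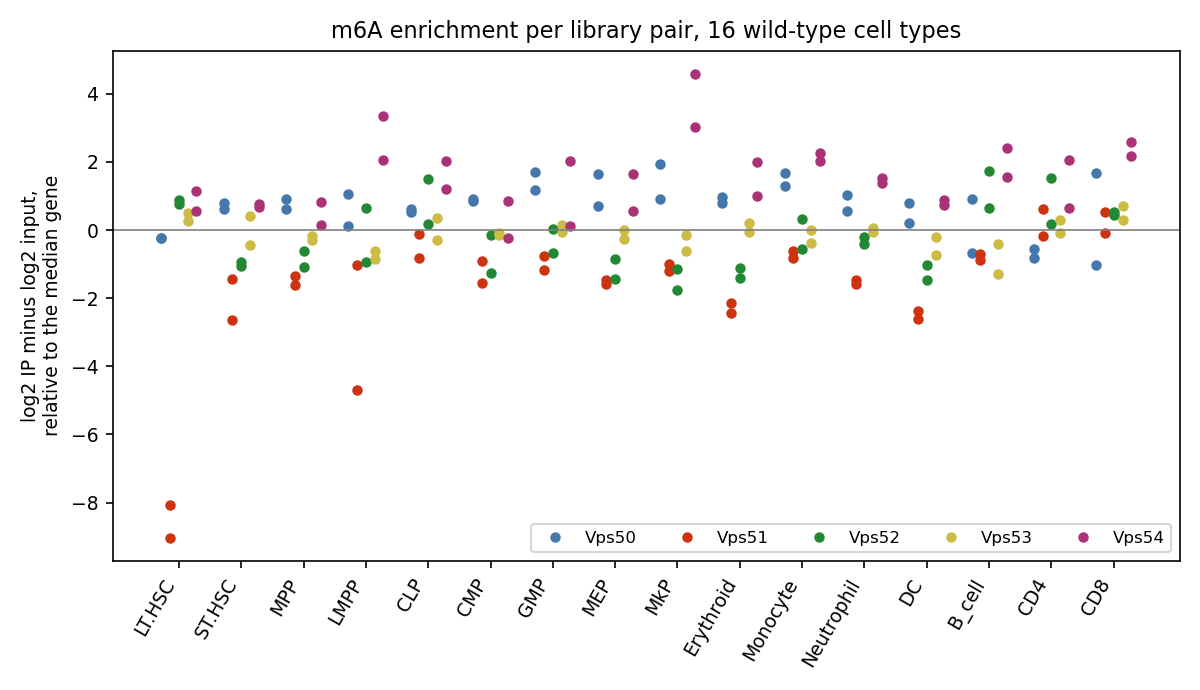
m6A enrichment of the 5 subunit genes (y axis, log2 IP minus log2 input relative to the median gene) in 16 wild-type cell types (x axis), a point per pair of libraries with the same number. Vps51 in LT.HSC lies below every other point, and the highest point of Vps54, at 4.58, is in MkP.

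Across types, Vps54 was enriched above the median gene in 16 of 16 types, Vps50 in 14, Vps52 and Vps53 in 6 each, and Vps51 in 2. Vps54 in MkP reached 4.12, at percentile 99.4 of all genes. Its IP counts there were 511 and 171, and its input values of 12.9 and 12.4 stood for 25 and 17 reads. Elsewhere Vps54 ranged between 0.95 in LT.HSC and 2.96 in LMPP. Vps52 ranged from -1.15 in Erythroid and -1.13 in MkP to 1.67 in B_cell. MkP was thus its highest type in input and among its lowest in enrichment, and the 2 values share the input libraries, which enter enrichment with a minus sign.

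Without LT.HSC, a limma F test of the enrichment across 15 types called 3 of 5 members, Vps51 (adjusted p = 0.0349), Vps52 (adjusted p = 0.00794) and Vps54 (adjusted p = 0.0136). It called 25.7% of 16881 genes. Vps50 (adjusted p = 0.122) and Vps53 (adjusted p = 0.307) missed the threshold, which does not show that they did not differ. The Vps51 call was lost with median-of-ratios scaling (adjusted p = 0.0509), without the CD4-labelled and CD8-labelled libraries (adjusted p = 0.0957) and without Erythroid and Monocyte (adjusted p = 0.112). It was also lost when any of 8 of the 60 libraries was left out, with adjusted p up to 0.0650: the inputs of CD4-labelled 1 and 2, CD8-labelled 1, Erythroid 1 and 2 and LMPP 2, and the IPs of CD4-labelled 1 and Erythroid 1. The Vps54 call was lost without MkP (adjusted p = 0.154), without its first IP library (adjusted p = 0.0576) and with the replicate block (adjusted p = 0.0526), and Vps50 was called without either of the CD8-labelled IP libraries, at an adjusted p of 0.00238 without the first.

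The genes most like Vps51 in enrichment over the 16 types, of 10365 compared, were Mrgbp, Bsdc1, Tmem189, Casc3 and Zfp639, with r from 0.931 to 0.924. LT.HSC carries much of this likeness, since r over the other 15 types was 0.815 for Mrgbp, 0.714 for Bsdc1, 0.811 for Tmem189, 0.669 for Casc3 and 0.595 for Zfp639. Their enrichment in LT.HSC ranged from -3.45 for Mrgbp to -0.46 for Casc3, none as low as Vps51.

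LT.HSC was measured again by wild-type samples within the Mettl3 set, and there the low Vps51 signal was not seen in both IPs. The wild-type LT.HSC IPs held 8 and 1420 estimated counts of Vps51, or 0.471 and 90.8 CPM, against 0.469 to 60.7 CPM in the 12 other wild-type IPs. The lowest of the 12, the first ST.HSC library, had 75.8% of its counts in 10 genes. The first LT.HSC library, with 8 counts, had 94.2% of its counts in 10 genes, and the other LT.HSC library was above all 12. All other members had few reads in that first LT.HSC library too, with 9 to 14 counts each. After TMM scaling it had 225 for Vps51, between 8.60 and 521.5 in the 12 other wild-type IPs, and 253 to 394 for the other members, so on that scale its values were not low. Its Vps51 enrichment was -0.99, at percentile 40.8 of all genes. Vps52 was low in the second library, with 12 counts against 1592 for Vps50, 1014 for Vps53 and 1455 for Vps54. Input values of Vps51 were 564 and 509 in wild-type LT.HSC and 440.0 to 1135 in the others.

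Relative to the mean of the other 6 wild-type types, the Vps51 enrichment in LT.HSC was 1.79 log2 units higher (SE 0.90, limma adjusted p = 0.396), of opposite sign to the atlas and not called. The difference was 0.70 to 2.90 when any 1 library was left out. Of the types compared, MkP had the lowest Vps51 enrichment, -3.81, and its second library had -6.24, at percentile 1.91 of all genes. The remaining types lay between -1.91 in MPP and -0.76 in ST.HSC. None of the 5 members was called, with 0.226% of 15030 genes called and 1 member, Vps53, at an unadjusted p under 0.05 (difference 3.09, adjusted p = 0.162), beside 12.97% of genes. The 95% interval for Vps51 ran from -0.04 to 3.61.

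Vps53 had less input RNA in wild-type LT.HSC of the Mettl3 set than in the other types. It had 108 and 219.7 in LT.HSC, against 339 to 535 with a median of 383 in 12 other wild-type libraries, and the groups did not overlap, as for 1.5% of genes in this direction. The log2 difference was -1.38 (SE 0.33, limma adjusted p = 0.0218), and 4.7% of 15030 genes were called, 1.9% as lower. The median of all genes was 0.21 in this contrast and 0.05 with TMM scaling, under which Vps53 was still called. The call rested on the first LT.HSC library, without which the difference was -0.87 (adjusted p = 0.489) and 24 genes were called in place of 706. It was also lost with the replicate block (difference -1.39, adjusted p = 0.0950). In the atlas, whose libraries are separate, LT.HSC was the second lowest type for Vps53. The other members were not called, with differences of -0.03 for Vps50, -0.37 for Vps51, -0.75 for Vps52 (adjusted p = 0.217) and 0.52 for Vps54.

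In the libraries labelled knockout, Mettl3 input RNA was 274 to 931 normalised read counts, with a median of 489, against 127 to 5370 with a median of 428 in those labelled wild type, where the highest was the first LT.HSC library. The groups overlapped and the knockout median was the higher. The labels do not name the deleted part of the gene, so RNA over the whole gene does not check them, and directions here are those of the labels.

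No member was called between the genotypes in input RNA. Vps51 was at 512 to 1431 in 14 inputs labelled knockout, with a median of 733, against 440.0 to 1135 with a median of 649 in 14 labelled wild type. Vps54 was at 12.8 to 189.98 with a median of 38.9 in knockout, against 19.0 to 352 with a median of 72.5 in wild type. The ranges overlapped for both. Averaged over 7 types, the log2 change of Vps51 was 0.18 (95% interval -0.17 to 0.54) and that of Vps54 was -0.52 (-1.37 to 0.32). It was -0.06 for Vps50, -0.02 for Vps52 and 0.11 for Vps53. limma called 0 of 5 members, also 0 at an unadjusted p under 0.05, while 10.1% of 15030 genes were called.

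In IPs, the Vps51 signal was 3.89 to 78.9 CPM with a median of 37.3 in knockout, against 0.469 to 90.8 CPM with a median of 27.0 in wild type. Vps52 was at 12.7 to 67.7 CPM with a median of 24.5 in knockout, against 0.235 to 39.8 CPM with a median of 17.7 in wild type. The ranges overlapped, and the low end was deeper in wild type for both genes. Both wild-type lows were from the first ST.HSC library, which had 75.8% of its counts in 10 genes. After TMM scaling that library had 381 for Vps51 and 190 for Vps52. On that scale the lowest wild-type values were 8.60 for Vps51 in the second MkP library and 8.57 for Vps52 in the second LT.HSC library. The lowest knockout values were 104 for Vps51 and 113 for Vps52. The mean log2 change was 0.20 for Vps51, 0.62 for Vps52 (SE 0.45), 0.60 for Vps50, 0.52 for Vps53 and -0.59 for Vps54. edgeR called 0 of 5 members and 0 at an unadjusted p under 0.05, with 0.596% of 17463 genes called, and DESeq2 also called 0 of 5. For enrichment, limma called 0 of 5 and 0% of 15030 genes, 682 of them with an unadjusted p under 0.05, and the changes were 0.47 for Vps50, 0.17 for Vps51, 0.79 for Vps52, 0.16 for Vps53 and -0.34 for Vps54.

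**Figure D3:**
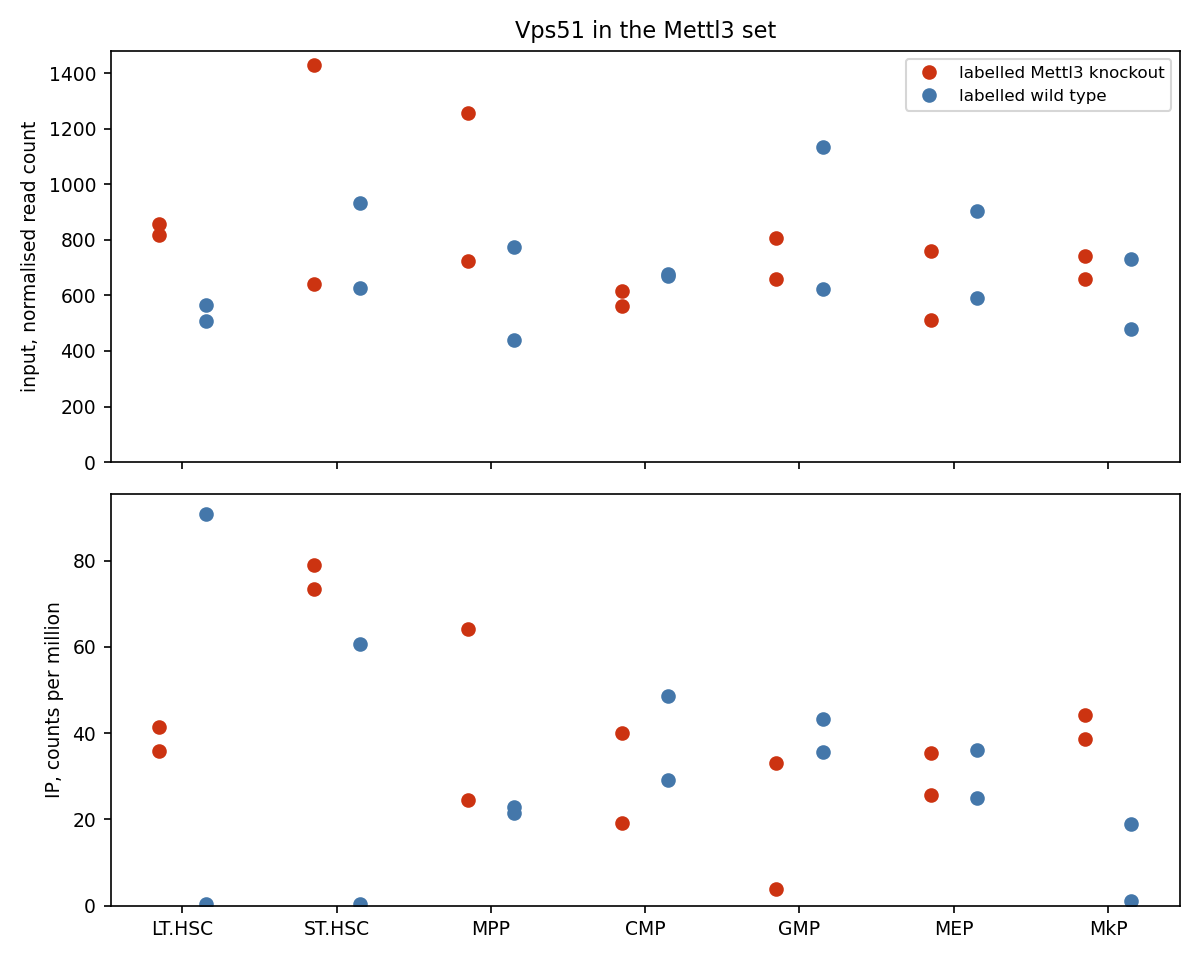
Vps51 in the Mettl3 set by cell type (x axis), with libraries labelled Mettl3 knockout in red left of those labelled wild type in blue, as input normalised read count (upper panel) and IP CPM (lower panel), a point per library. The wild-type IP points of LT.HSC lie at 0.471 and 90.8.

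Cell type by cell type, no member was called in input RNA, where the share of all genes called was 0.539% in LT.HSC, 0.0133% in ST.HSC, 0.0133% in MPP, 0.00665% in CMP, 0% in GMP, 2.14% in MEP and 0.113% in MkP. In IPs, no member was called and the share was 0.309% in LT.HSC, 0.533% in ST.HSC, 0.00573% in MkP and 0% in the other 4 types. In enrichment, no member was called and the share was 0.00665% in MEP, 0.0133% in MkP and 0% in the other 5 types. Tests of a difference in the knockout effect among the 7 types called no member either, beside 0.0133% of genes in input and 0% in IP and enrichment. At an unadjusted p under 0.05 stood 0 members in inputs. In IPs there was 1 in GMP, beside 7.16% of genes, and 2 in MkP, beside 11.2%, and in enrichment 1 in LT.HSC, beside 8.22%, and 3 in MkP, beside 7.06%. The test of differences among types in IPs had 1, Vps53 (edgeR adjusted p = 0.740), beside 4.25% of genes. In the MkP IPs, Vps50 had 1917 and 246 estimated counts in knockout, against 1.0 and 42.4 in wild type. Vps52 there had 1099 and 414 in knockout, against 20 and 71 in wild type. The log2 change was 4.92 for Vps50 (edgeR adjusted p = 0.244) and 3.29 for Vps52 (adjusted p = 0.350). In CPM the knockout libraries lay above the wild-type ones for 4 of 5 members, all but Vps54, and for 21.4% of genes. The knockout MkP IPs detected 15438 and 15938 genes, against 11436 and 13764 in wild type. The MkP-labelled inputs also differed in marker genes. The summed normalised read count of 4 MkP markers was 7608 to 11773 in knockout, against 32626 to 46489.5 in wild type. That of 3 MEP markers was 1418 to 2196 in knockout, against 3276 to 5559.8 in wild type, that of 4 LT.HSC markers 79.9 to 115 in knockout, against 116 to 822 in wild type, and that of 3 GMP markers overlapped. The part of these differences in the result was not tested. In GMP, Vps53 had 7725 and 364 counts in knockout, against 719.5 and 463 in wild type, so 1 library set a difference of 4.64 (adjusted p = 0.427).

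In LT.HSC labelled Igf2bp2 -/-, Vps52, Vps50 and Vps51 had lower CPM in both libraries than in either wild-type library, and edgeR called none of them. Igf2bp2 itself had 61 and 81 counts in the libraries labelled knockout, against 142 and 263 in those labelled wild type, or 13.03 and 12.5 CPM against 7.11 and 53.5 CPM. Both libraries labelled knockout were thus above 1 labelled wild type, and directions here are those of the labels. Vps52 had 13 and 6 counts in libraries labelled knockout, against 1411 and 137 in wild type, or 2.78 and 0.924 CPM against 70.6 and 27.8 CPM. Vps50 had 4.06 and 3.54 CPM in libraries labelled knockout, against 22.1 and 23.8 CPM in wild type, and Vps51 had 23.1 and 41.4 CPM, against 47.3 and 74.0 CPM in wild type. The groups did not overlap, with the knockout lower, for these 3 of 5 members and for 30.1% of genes. The log2 change was -4.28 for Vps52 (SE 1.10, adjusted p = 0.618) and -2.20 for Vps50 (SE 1.06, adjusted p = 0.821), with 95% intervals of -6.86 to -1.70 and -4.68 to 0.27. edgeR called 0% of 12221 genes, and 777 of them, or 6.36%, had an unadjusted p under 0.05, as did 1 member, Vps52.

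Other settings did call Vps52, DESeq2 with -4.27 (adjusted p = 0.00358) and edgeR without a filter on low counts with -4.41 (adjusted p = 0.0332). Leaving out any 1 library gave -5.56 to -3.52. The change of Vps51 was -0.59 (95% interval -1.99 to 0.81) and that of Vps53 was -0.02 (-1.58 to 1.54). Vps54 was at 185 and 136 CPM in libraries labelled knockout, against 172 and 200.03 CPM in wild type, with a lower mean in knockout. The TMM scaling of the test turned that direction, with 1807 and 982 scaled counts in libraries labelled knockout, against 1104 and 1324 in wild type, and a change of 0.20 (-0.92 to 1.32). Cell type markers moved with the labels too. Of 13 marker lists, the summed CPM was higher in both libraries labelled knockout for 6 (GMP, neutrophil, monocyte, B cell, T cell and CD4), lower in both for 3 (LT.HSC, MkP and DC), and overlapped for 4. The CD4 list, of 2 genes, was near the floor, at 0.462 to 0.854 CPM in libraries labelled knockout and 0.400 to 0.407 CPM in wild type. The sum of 4 LT.HSC markers was 255 to 263 CPM in libraries labelled knockout and 393 to 411 CPM in wild type, and that of 4 MkP markers 72.2 to 80.8 CPM in knockout and 121 to 175 CPM in wild type. The sum of 3 GMP markers was 334 to 3249 CPM in libraries labelled knockout and 94.3 to 130 CPM in wild type, and that of 4 neutrophil markers 1003 to 2692 CPM in knockout and 182 to 425 CPM in wild type. Their part in the result was not tested.

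**Figure D4:**
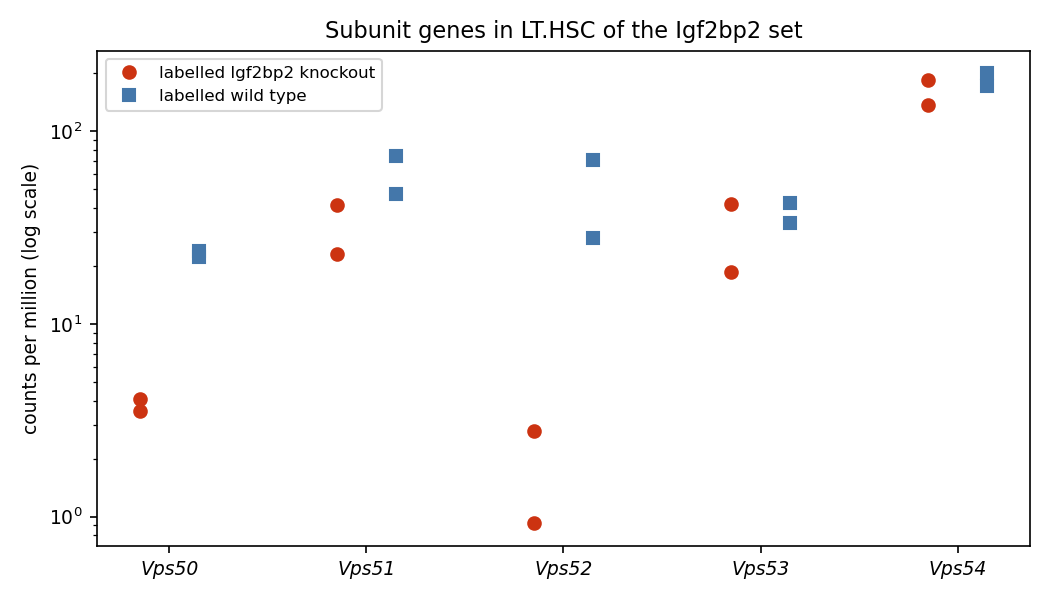
The 5 subunit genes in LT.HSC of the Igf2bp2 set (y axis, CPM on a log scale), with libraries labelled knockout as red circles left of wild-type libraries as blue squares, 2 each. Vps50, Vps51 and Vps52 lie lower in both libraries labelled knockout, and Vps53 and Vps54 overlap.

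New RNA was measured as the T-to-C ratio after 3 h of 4-thiouridine, in percent, for the 4 members listed there. The libraries differed in their medians over genes above 0, from 0.400% in the second GMP library to 1.77% in the second MPP library, so each value is also placed among the genes of its own library. Vps50 had 2.15 and 5.52% in LT.HSC, against 0.2003 to 4.90% with a median of 1.65% in 10 libraries of the other 5 types, and stood at percentiles 92.4 and 98.7 of its LT.HSC libraries. Vps52 had 0.436 and 0.923% in LT.HSC and was lowest in GMP, with 0.0462 and 0.0787%. The GMP libraries of Vps52 lay below all 10 others, as for 4.88% of genes, at percentiles 7.81 and 16.3. Vps53 was highest in CMP with 4.52 and 2.52%, at percentiles 92.8 and 76.2, where the library medians were 1.56 and 1.54%. Vps54 lay between 0.393 and 2.87% in all 12 libraries. In a limma F test across the 6 types none of the 4 was called, with 0% of 13909 genes called and 1695 genes (12.2%), but no member, at an unadjusted p under 0.05. The LT.HSC difference was 1.19 for Vps50 (95% interval -0.40 to 2.79, adjusted p = 0.592), 0.24 for Vps52, -0.21 for Vps53 and -0.27 for Vps54, on the log2(percent + 0.1) scale, beside a median of -0.44 over all genes, again with 0% called.

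**Figure D5:**
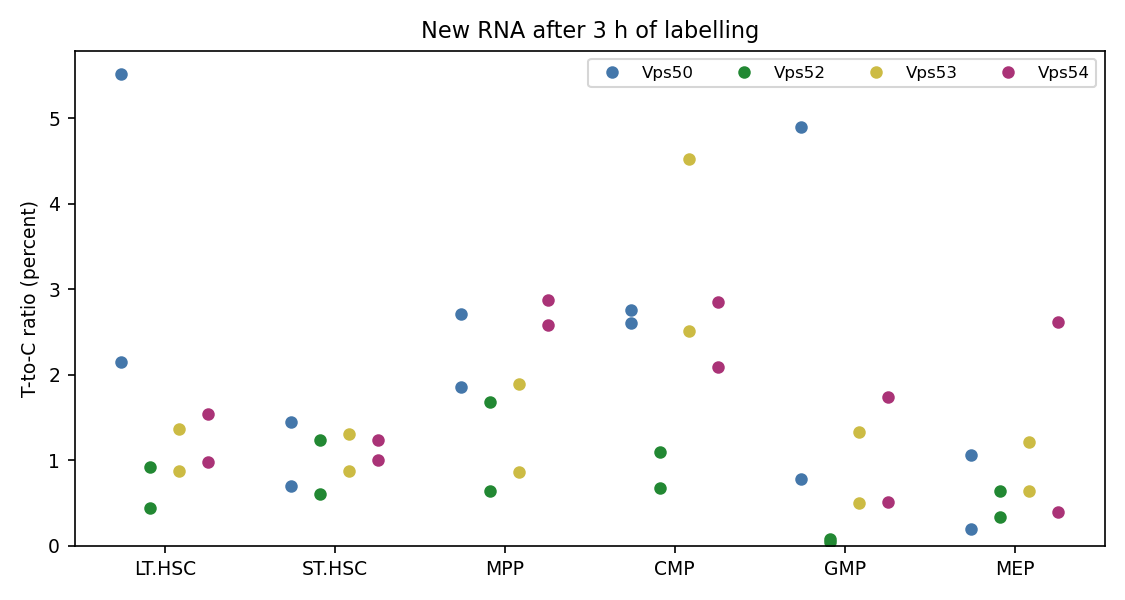
New RNA of Vps50, Vps52, Vps53 and Vps54 (y axis, T-to-C ratio in percent) in 6 cell types after 3 h of labelling (x axis), a point per library. Vps50 spans 2.15 to 5.52% in LT.HSC, and Vps52 is lowest in GMP.

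The chase after 24 h of labelling has 2 libraries per time for LT.HSC and 1 per time for MkP. For it the authors deposited averages at 0.5, 1, 3, 6, 9, 12 and 24 h, of which 51.27% were not given for LT.HSC and 43.83% for MkP. What an average covers for MkP, with 1 library per time, is not stated. The last value given was below the first in 6 of 8 series of a member in a cell type and above it in 2. Among the 6, Vps54 in LT.HSC had 0.0118% at 0.5 h, 0.0725% at 1 h, 0.0204% at 3 h, 0.0121% at 6 h and 0.011% at 12 h, and Vps52 in MkP had 0.192% at 0.5 h, 0.225% at 1 h, 0.0302% at 3 h and 0.0326% at 6 h. The 2 that ended higher were Vps53 in MkP, with 0.0153% at 0.5 h, 0.115% at 3 h, 0.353% at 6 h and 0.943% at 12 h, and Vps50 in LT.HSC, with 0.0682% at 3 h, 0.165% at 6 h and 0.240% at 12 h. Vps53 in LT.HSC had 0.962% at 0.5 h and 0.0189 to 0.119% later, so single values stood far from their neighbours. No member had a value at 24 h in either cell type, so no half-life was fitted.

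Related tethering and sorting genes give the setting for these counts. Across the 15 types, input RNA differed for 18 of 19 partners and cargo genes, 7 of 8 retromer and sorting nexin genes, 8 of 8 COG genes, 9 of 9 exocyst genes, 3 of 3 Dsl1 genes and 5 of 8 HOPS and CORVET genes, beside the 92.5% of all genes. Enrichment differed for 9 of 19 partners and cargo genes, among them the golgin Gcc2, the GTPase Arl5a and the sorting receptor M6pr, for 2 of 8 retromer, 2 of 8 COG, 2 of 9 exocyst, 1 of 3 Dsl1 and 1 of 8 HOPS and CORVET genes, beside the 25.7%. In input RNA of libraries labelled Mettl3 knockout, Vps33a (a HOPS and CORVET subunit) rose by 1.44 (limma adjusted p = 3.80e-05) and Cog8 by 1.09 (adjusted p = 0.00295), and no other listed gene was called. The list medians there ran from -0.48 for exocyst to -0.18 for retromer and sorting nexins, beside -0.06 over all genes. In the IPs, Vps16, another HOPS and CORVET subunit, fell by 1.80 (edgeR adjusted p = 0.0367). In wild-type LT.HSC inputs of the Mettl3 set, the retromer gene Vps26b differed by -1.48 (adjusted p = 0.0359).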

How the data were processed

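Input and m6A IP RNA-seq and SLAM-seq of sorted mouse blood cell types were used. Per the submitters' processing notes, the tools were fastp, Trimmomatic and kallisto and the build GRCm38, with no version or role stated. Atlas IP and Igf2bp2 values are counts, as the authors deposited them. For Mettl3 IPs the authors deposited estimated counts, rounded here. Input tables, which the authors deposited as a normalised signal, are reads divided by a size factor: 100% of values were whole reads within a tolerance of 0.1. The SLAM-seq T-to-C fraction deposited by the authors is printed as percent, and its depth is unknown.

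Inputs, enrichment (TMM-scaled IP and input) and T-to-C ratios were tested by limma (3.58.1, under R 4.3.3) on the scale log2(value + 1), or log2(percent + 0.1), for genes with a value of 10 in at least 2 input libraries or a ratio above 0 in at least 6. Counts were tested with edgeR 4.0.16 quasi-likelihood, with DESeq2 1.42.0 as an alternative. Intervals (95%) use each fit's t distribution, with the edgeR standard error taken from its F statistic. Calls had a Benjamini-Hochberg adjusted p under 0.05 over all genes. Enrichment is relative within each table, so an m6A change common to all transcripts cannot be seen. Scripts were tested on simulated data. The design had assumed normalised counts for inputs, and the tests were kept.

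Named genes are the 5 members, listed genes past the threshold, the genes most like a member, Tm7sf2 and Znhit2 near Vps51 and the knocked-out genes. The members and lists were chosen with earlier results of these data known. Alternatives changed the pseudocount, filter, scaling, tool, replicate block and libraries; those without the CD4 and CD8, Erythroid and Monocyte, MkP or LMPP libraries were added after seeing the data.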

Additional observations from a re-analysis of the deposited data

How the results depend on the processing

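All 5 members were called across types in atlas input under every alternative and with any 1 of 30 libraries left out. Most genes were called there too, 92.5% in the main fit and 15207 to 16005 genes with 1 library left out. For enrichment, 2 to 4 members were called, beside 25.7% of genes in the main fit and 3415 to 7094 genes with 1 library left out. In wild-type LT.HSC inputs of the Mettl3 set, 1 member was called; the count was 0 without the libraries held doubtful (WT IP LT.HSC 1, WT IP ST.HSC 1, KO IP MEP 1 and WT input LT.HSC 1), and 0 to 1 with any 1 library left out, where the loss came without WT input LT.HSC 1. In the Igf2bp2 set, 1 member was called in place of 0 both with no filter and with DESeq2. No member was called under any alternative in the Mettl3 knockout comparisons averaged over cell types or in the new-RNA comparisons. Mettl3 knockout comparisons within single cell types, and tests of differences in the knockout effect among types, were not repeated under the alternatives.

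Replicate numbers were not used as pairs in the main tests. Deviations of same-numbered knockout and wild-type inputs correlated at -0.107 to 0.224, and those of atlas inputs and IPs at -0.119 to 0.245. Those of Mettl3-set inputs and IPs correlated at -0.162 to 0.440 (median 0.203). Those of wild-type inputs between the 7 types of the Mettl3 set correlated at 0.019 to 0.493 (median 0.220, all 21 above 0 but not all over 0.1). Same-numbered libraries of the Mettl3 set may thus not be independent, and the reason was not tested. With the replicate block, the count in wild-type LT.HSC inputs was 0 (Vps53 -1.39, limma adjusted p = 0.0950), and Vps54 lost its enrichment call (adjusted p = 0.0526).

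Counts over all genes moved more. For wild-type LT.HSC inputs they were 706, against 1455 with a pseudocount of 10, 1190 with no filter, 1850 with edgeR and 24 without the doubtful libraries; TMM scaling turned 421 higher and 285 lower calls into 342 and 437. For Mettl3 knockout IPs they were 104, against 439 with no filter, 896 with DESeq2, 69 with the block, 217 without the doubtful libraries and 4 over means per genotype and replicate number, which gave 1 in place of 1522 for inputs. For wild-type LT.HSC enrichment they were 34, against 96, 95 and 63 with a pseudocount of 10, no filter and median-of-ratios scaling (11 higher, 52 lower, against 10 and 24), and 1 to 488 with any 1 library left out. For the Igf2bp2 set they were 0, against 44, 151 and 8 with no filter, DESeq2 and the block, and for new RNA 0, against 69 and 12 with no filter and a pseudocount of 1 percent. The median of all genes was 0.14 in Mettl3 knockout IPs and -0.03 with DESeq2, and for the atlas LT.HSC enrichment difference -0.21 and -0.07 with median-of-ratios scaling. The causes were not tested. Leaving out libraries in Mettl3 IPs kept the dispersion trend of all libraries. The edgeR fit of atlas inputs left out GMP replicate 2, although whole reads were recovered for it as for the other inputs.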
